A study of Mus musculus with 10 samples.

Results

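The 7 genes that encode the inhibitors of cyclin-dependent kinases (CDKs) were followed across crypts of the mouse distal colon: Cdkn1a, Cdkn1b and Cdkn1c of the CIP/KIP family and Cdkn2a, Cdkn2b, Cdkn2c and Cdkn2d of the INK4 family. They were taken by symbol from 23364 genes in each of 2 deposited tables, and all 7 were present and tested in both. Poly(A) RNA was sequenced from crypts shaken loose in EDTA, in 3 groups. The control group held 3 libraries from mice that received nothing. For the DSS group 4 libraries were made from mice treated with dextran sulfate sodium, an irritant that inflames the colon. For the AOM+DSS group 3 libraries came from mice treated with the carcinogen azoxymethane and then DSS, a regimen that yields inflammation-driven colon tumours. Not given in the sources used here were strain, sex, age, doses, times, any pooling of animals and whether the AOM+DSS crypts came from tumours. No group received AOM alone, so AOM was measured only together with DSS.

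CDK inhibitors brake the cell cycle. INK4 proteins bind CDK4 and CDK6 and keep D-type cyclins from activating them, which leaves the retinoblastoma protein RB holding E2F transcription factors in check. CIP/KIP proteins bind a wider range of cyclin-CDK complexes. Cdkn2a is unusual in that separate first exons give INK4A, the CDK inhibitor, and ARF, an unrelated protein that binds MDM2 and so stabilises p53. The locus is nearly silent in most young tissues, where Polycomb complexes hold it down, and it is switched on by oncogenic signals and in ageing or senescent cells. In the colon epithelium, Cdkn1a and Cdkn1b are known for marking cells that leave the cycle as they move up the crypt.

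Cdkn2a and Cdkn2b lie side by side on chromosome 4 and ran in opposite directions across these libraries, so the 250 bases before their annotated starts are shown. The sequences are RefSeq's (mouse build GRCm38.p6, minus strand). Cdkn2a has 2 starts, an upstream one (ARF, chr4:89294620-89294869) and a downstream one (INK4A, chr4:89282193-89282442), 12427 bases apart, and the Cdkn2b window is chr4:89311033-89311282. Capitals mark a match to the E2F motif TTTCCCGC in the first sequence and to the cyclic AMP response element TGACGTCA in the third.
Cdkn2a, upstream start: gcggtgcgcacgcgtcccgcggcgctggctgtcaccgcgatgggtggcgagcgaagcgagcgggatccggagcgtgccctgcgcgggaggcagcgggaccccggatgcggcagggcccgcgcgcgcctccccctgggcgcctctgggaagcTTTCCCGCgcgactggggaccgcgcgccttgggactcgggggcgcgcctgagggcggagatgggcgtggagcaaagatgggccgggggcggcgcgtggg
Cdkn2a, downstream start: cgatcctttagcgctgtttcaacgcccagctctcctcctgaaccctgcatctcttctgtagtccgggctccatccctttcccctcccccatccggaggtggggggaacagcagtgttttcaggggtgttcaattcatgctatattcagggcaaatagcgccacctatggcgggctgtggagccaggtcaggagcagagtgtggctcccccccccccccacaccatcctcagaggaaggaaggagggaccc
Cdkn2b: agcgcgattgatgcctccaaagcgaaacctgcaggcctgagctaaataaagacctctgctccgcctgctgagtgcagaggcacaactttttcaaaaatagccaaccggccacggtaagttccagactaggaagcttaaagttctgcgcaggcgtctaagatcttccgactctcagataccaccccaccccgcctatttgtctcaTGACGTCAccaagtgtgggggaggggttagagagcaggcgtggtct
The upstream Cdkn2a window is 78.4% G or C and holds 40 CpG dinucleotides, more than 98.7% of 32851 mouse windows of this length, whose median is 6. The downstream window holds 7 and the Cdkn2b window 12. The E2F motif stands 99 bases before the upstream Cdkn2a start and occurs in 0.895% of all windows. The response element stands 46 bases before the Cdkn2b start and occurs in 1.55%. The GC box GGGCGG, present in 32.7% of windows, occurs 2 times in the upstream Cdkn2a window and in neither of the other windows shown. A pair of p53 half-site cores (CATG, 6 bases of any kind, CATG, in 0.490% of windows) was found 48 bases before the distal start of Cdkn1a and in no other window of the family. All motifs were searched on both strands and chosen after the sequences were seen, they do not overlap each other, and a match is a description of letters, not a site in use. Windows were found for 6 of the 7 genes, all but Cdkn1c.

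The tables give group means of normalized reads, that is, reads divided by a size factor for each library's depth. The digits of these means allowed whole reads per library to be recovered for 99.9% of control, 88.5% of DSS and 99.9% of AOM+DSS genes, and for every CDK inhibitor except Cdkn1a in DSS. The recovered genes held 93.1% of the summed means in control, only 30.2% in DSS and 95.3% in AOM+DSS. Libraries carry letters by depth within their group, a being the deepest, with no link to the labels' replicate numbers. Recovered depth was 16165300 to 23593132 reads in control and AOM+DSS. In DSS, where genes of high mean were not recovered, size factors were 1.27, 1.21, 0.706 and 0.645 for libraries a to d. DSS libraries c and d resembled each other (r = 0.982 of log2 values over 11083 genes) more than they resembled a and b (0.919 to 0.946), so values for DSS are also given by these pairs where it matters. None of the 12 epithelial markers examined was called in either deposited comparison (1 in each at an unadjusted p under 0.05 by the authors' DESeq, and 0 of 1 and 0 of 9 by limma). In the authors' deposited table the keratin gene Krt8 averaged 69346 normalized reads in control, 73034 in DSS and 57412 in AOM+DSS.

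Cdkn2a went from all but absent in control crypts to readily detected in every treated library. The control libraries a to c held 0, 3 and 0 reads of Cdkn2a, or 0, 2.96 and 0 normalized reads. DSS libraries a to d held 116, 143, 35.4 and 74.5 normalized reads, from 147, 174, 25 and 48 reads. AOM+DSS libraries a to c held 152, 209 and 76.2, from 205, 253 and 69 reads. The 7 treated libraries all lay above the 3 controls, with the smallest gap between control b and DSS c. The control mean was 0.988 ± 1.71 normalized reads (SD, n = 3), that of DSS 92.4 ± 47.4 (n = 4) and that of AOM+DSS 146 ± 66.8 (n = 3). Among treated libraries the level still varied 4.05-fold within DSS and 2.75-fold within AOM+DSS. The DSS pair a and b, which stood apart from c and d, held the higher values of that group.

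**Figure D1:**
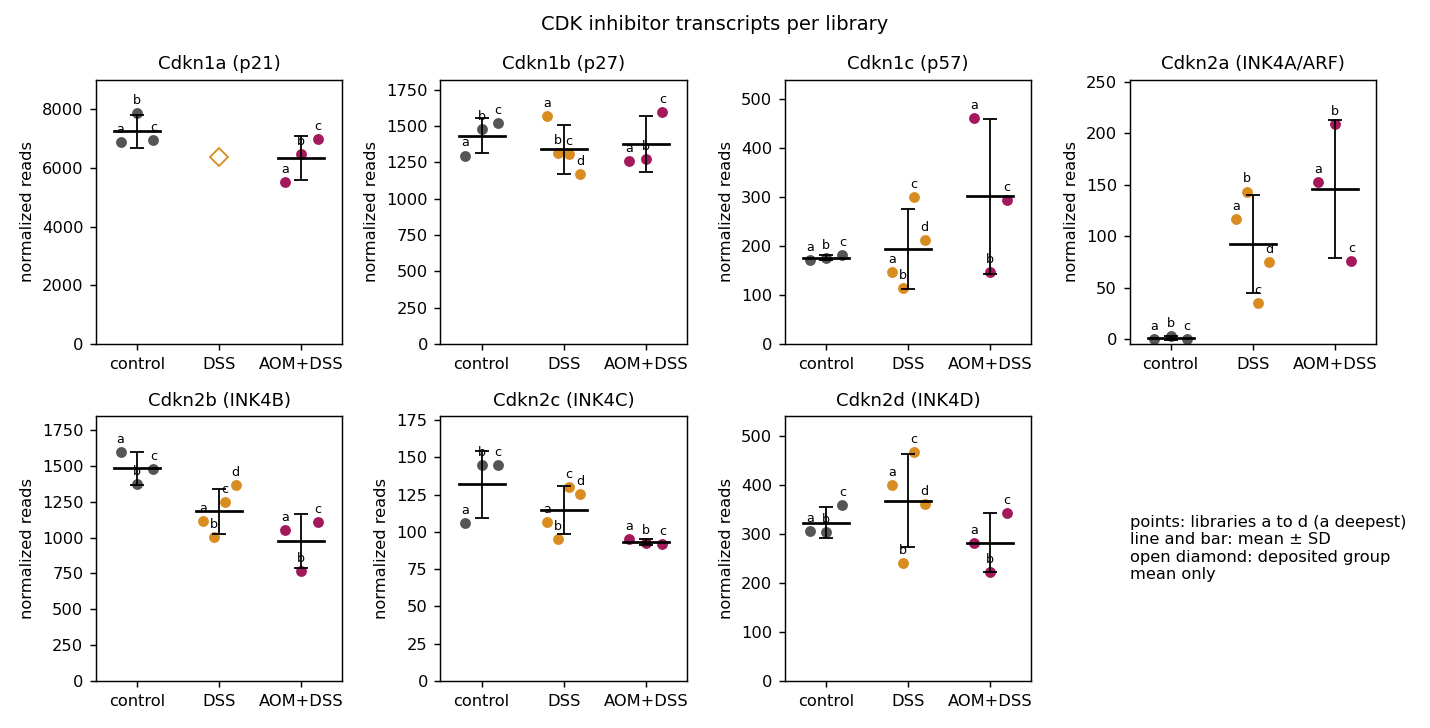
Normalized reads (vertical axis, linear) of each CDK inhibitor in every library, by group; lettered points are libraries, lines and bars are the mean ± SD, and the open diamond for Cdkn1a in DSS is the deposited group mean. Cdkn2a is at 0 to 2.96 in control and at 35.4 to 209 in the treated libraries, while the control and treated points of Cdkn1b, Cdkn1c and Cdkn2d interleave.

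Cdkn2a rose in DSS by 6.55 on the log2 scale, 93.5-fold, with adjusted p = 1.28e-08 in the authors' deposited table (DESeq, adjusted over all genes). In AOM+DSS it rose by 7.21, 148-fold, with adjusted p = 5.89e-10 in the authors' deposited table. These folds rest on 3 control reads. The ratio of pooled reads was 103 in DSS (95% interval 34.9 to 499.7) and 152 in AOM+DSS (51.7 to 739.3), where the interval covers counting error only. With control library b left out no control read remained. Against an assumed floor of 3 reads over both other controls, Cdkn2a stood 60.9-fold higher in DSS and 96.3-fold higher in AOM+DSS. That setting drops the only control with reads, so these values are not lower limits for all 3 controls. Limma on log2(normalized reads + 1) gave 5.71 ± 0.683 (SE, adjusted p = 0.00327) in DSS and 6.42 ± 0.687 (adjusted p = 0.00264) in AOM+DSS. Within the pairs of DSS libraries, limma gave 6.36 for a and b (adjusted p = 0.0126) and 5.05 for c and d (adjusted p = 0.0135). The counts are per gene, so transcripts for INK4A and for ARF are not separated, and in bulk RNA more cells with Cdkn2a transcripts cannot be told apart from more transcripts per cell.

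The difference in Cdkn2a between AOM+DSS and DSS did not pass. Cdkn2a stood 1.48 times as high in AOM+DSS by pooled reads (1.30 to 1.69, counting error only), but the libraries of the 2 groups overlapped. By limma the difference was 0.72 on the log2 scale with a 95% interval of -0.45 to 1.88 (adjusted p = 0.610). It was 0.06 against DSS libraries a and b and 1.37 against c and d, so the value depends on the DSS pair compared.

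Markers of other cells were summed for each library as a description. Against control, the authors' DESeq called 4 of 13 myeloid markers higher in DSS and 8 of 13 in AOM+DSS, 2 of 7 squamous markers higher in each, and 1 and 2 of 10 T and NK cell markers higher. It called 1 of 14 fibroblast and matrix markers lower in DSS, and 2 higher and 1 lower in AOM+DSS. It called 0 smooth muscle, endothelial, and B and plasma cell markers in either comparison, of which limma called 4 of 8 B and plasma cell markers higher in DSS and no others (at an unadjusted p under 0.05, DESeq gave 0, 1 and 4 in DSS and 0, 1 and 0 in AOM+DSS, in that order of lists). On the other lists limma called 2 of 12 myeloid markers higher in DSS and 11 of 13 in AOM+DSS. Of squamous markers limma called 1 and 2 of 7 higher, and of T and NK cell markers 0 and 1 of 10. Of 14 fibroblast and matrix markers limma called 1 higher and 1 lower in DSS, and 2 higher and 0 lower in AOM+DSS. Summed normalized reads of 12 myeloid markers ran from 1256 to 3247 in control, 2130 to 8621 in DSS and 4945 to 9790 in AOM+DSS. Fibroblast and matrix markers (14) summed to 581 to 3104, 813 to 2300 and 4120 to 5905 in the same order. B and plasma cell markers (8) summed to 129 to 1031, 1883 to 9422 and 332 to 1098. T and NK cell markers (10) summed to 207 to 894, 687 to 4640 and 736 to 1159, highest in DSS library a. Smooth muscle markers (10) summed to 1390 to 3053, 1822 to 2281 and 1634 to 14917, highest in AOM+DSS library c. Endothelial markers (9) summed to 489 to 890, 316 to 715 and 315 to 909. Squamous markers (9), keratins and cornified envelope genes among them, summed to 175 to 205, 544 to 2040 and 997 to 1446, the only list whose treated libraries all lay above all controls. Most of that sum was 1 gene, Sprr1a, with deposited means of 144 in control, 1020 in DSS and 943 in AOM+DSS. At most 4 markers of any of these lists, all squamous, were at 0 in a library, and no more than 3 of any other list.

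Control library b had the highest sum of the controls in all 7 lists, with 2.96 normalized reads of Cdkn2a. Of the 7 treated libraries, 2 had a lower sum than this control for the myeloid and for the B and plasma cell list, 4 for the fibroblast and for the T and NK cell list, 6 for the smooth muscle and for the endothelial list, and 0 for the squamous list. The part of any of these cells in the Cdkn2a level was not tested.

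**Figure D2:**
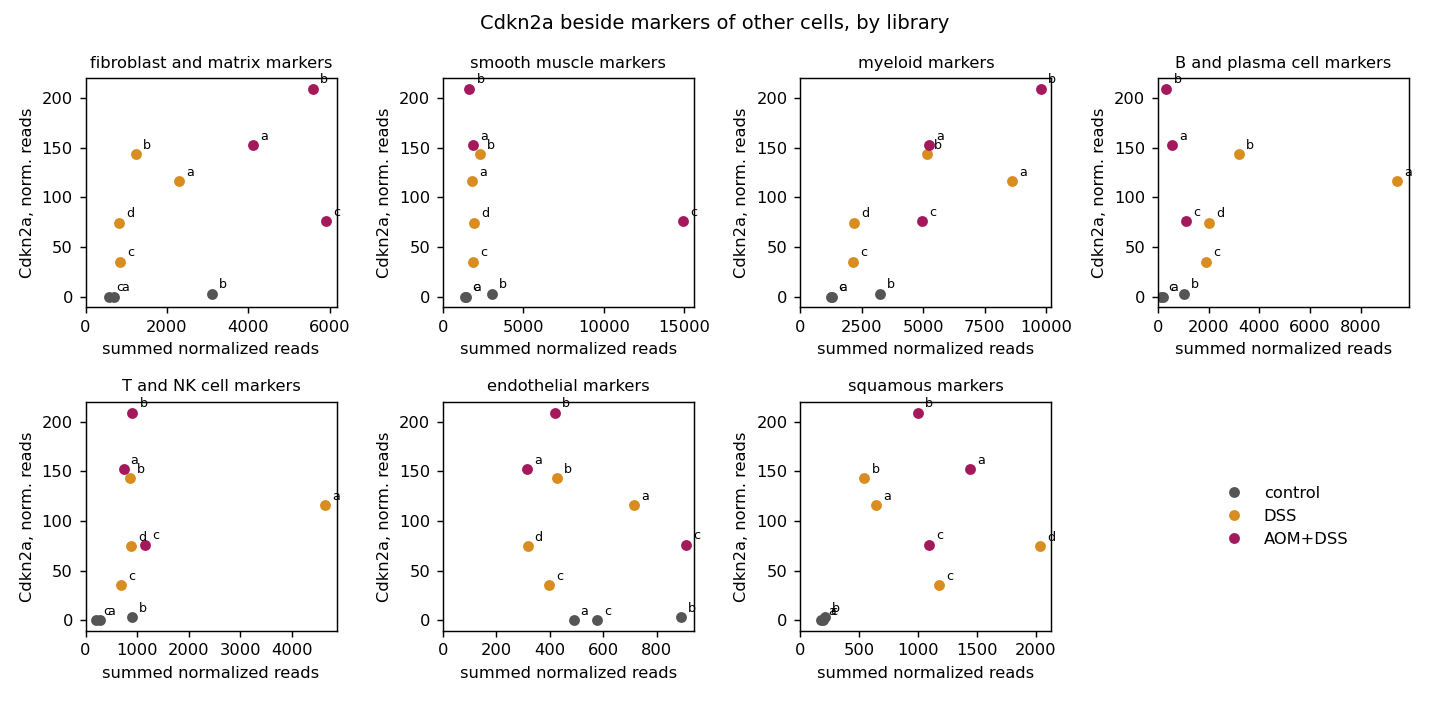
Cdkn2a (vertical axis, normalized reads) against the summed normalized reads of 7 marker lists (horizontal axes, linear), 1 lettered point per library, coloured by group. Control library b, with Cdkn2a at 2.96, lies to the right of 2 to 6 of the 7 treated libraries in every panel but the squamous one, where it lies to the right of 0.

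Cdkn2b, the neighbour of Cdkn2a, encodes INK4B, which is induced by transforming growth factor beta in many epithelia. It was abundant in control crypts and lay lower in every treated library. Control libraries a to c held 1599, 1372 and 1479 normalized reads, DSS libraries a to d held 1116, 1002, 1246 and 1365, and AOM+DSS libraries a to c held 1056, 764 and 1109. Neither treated group overlapped the control, although DSS library d lay just under control library b. The control mean was 1483 ± 114 normalized reads (SD, n = 3), that of DSS 1182 ± 157 (n = 4) and that of AOM+DSS 976 ± 186 (n = 3).

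The size of that difference was modest and its call depended on the test. In the authors' deposited table Cdkn2b had a log2 fold of -0.33 in DSS (DESeq adjusted p = 0.476) and of -0.60 in AOM+DSS (adjusted p = 0.0680, unadjusted p = 0.00686), so neither passed. Limma gave -0.62 in AOM+DSS (95% interval -0.97 to -0.26) with adjusted p = 0.0334, which passed, and -0.33 in DSS with adjusted p = 0.186. Limma called Cdkn2b in AOM+DSS in 7 of 11 settings, with adjusted p from 0.0247 to 0.140. Between the treatments the difference was -0.28 (-0.67 to 0.10, limma adjusted p = 0.515).

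Across the 10 libraries Cdkn2a and Cdkn2b ran in opposite directions, with Pearson's r of -0.82 between log2 values, given as a description. Within the 7 treated libraries alone r was -0.78, beside -0.77 for Cdkn2a with Cdkn2c, which is not its neighbour. AOM+DSS library b held the highest Cdkn2a and the lowest Cdkn2b of all libraries. Per kilobase of transcript, Cdkn2a stood at 0 to 0.335% of Cdkn2b in control, 4.41 to 22.2% in DSS and 10.7 to 42.5% in AOM+DSS, so Cdkn2b stayed the more abundant of the pair in every library.

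**Figure D3:**
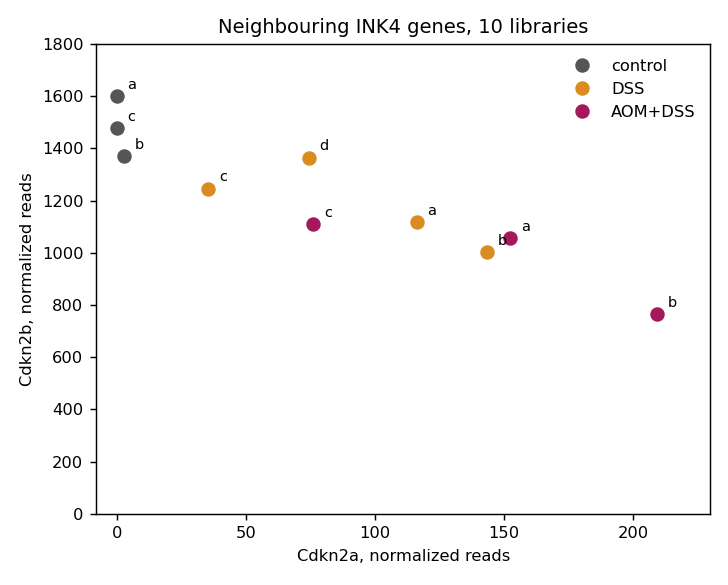
Cdkn2b against Cdkn2a in normalized reads (both axes linear), 1 lettered point per library, coloured by group. Controls sit at the upper left, with Cdkn2b at 1372 to 1599, and AOM+DSS library b at the lower right, with Cdkn2a at 209 and Cdkn2b at 764.

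The genes on either side of the pair were read as well, in RefSeq gene order. Mtap, a gene of the methionine salvage pathway that adjoins Cdkn2a, stood at 203, 155 and 157 normalized reads in control, 302, 371, 180 and 237 in DSS, and 474, 710 and 296 in AOM+DSS. Its libraries ranked in the same order as those of Cdkn2a within DSS and within AOM+DSS, a likeness seen after the values were known. It rose in AOM+DSS by 1.52 on the log2 scale (DESeq adjusted p = 0.0224) and did not pass in DSS (0.67, adjusted p = 0.547), both in the authors' deposited table. Dmrta1, a transcription factor gene next to Cdkn2b, was low, with means of 6.92 in control, 52.5 in DSS and 26.4 in AOM+DSS. It rose in DSS by 2.92 on the log2 scale (DESeq adjusted p = 0.00185) and did not pass in AOM+DSS (1.93, adjusted p = 0.0979), per the authors' deposited table. Thus of Mtap, Cdkn2a, Cdkn2b and Dmrta1, which follow each other on the chromosome, Cdkn2b alone had negative folds.

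Cdkn2c encodes INK4C, a CDK4 and CDK6 inhibitor that acts in proliferating and differentiating cells. Control libraries a to c held 106, 145 and 145 normalized reads, DSS libraries a to d held 107, 95.6, 130.3 and 126, and AOM+DSS libraries a to c held 95.2, 92.6 and 91.7. The 3 AOM+DSS libraries lay close together and below every library of the other groups, while DSS overlapped control. The control mean was 132 ± 22.5 normalized reads (SD, n = 3), that of DSS 115 ± 16.2 (n = 4) and that of AOM+DSS 93.2 ± 1.80 (n = 3). For Cdkn2c the authors' deposited table gave a log2 fold of -0.21 in DSS (DESeq adjusted p = 0.983) and -0.50 in AOM+DSS (adjusted p = 0.597). Limma put AOM+DSS against DSS at -0.28 (-0.80 to 0.23, adjusted p = 0.648). No test called Cdkn2c in any comparison.

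Cdkn2d encodes INK4D, which is made periodically through the cell cycle. Control libraries a to c held 306, 304 and 359 normalized reads, DSS libraries a to d held 399, 241, 467 and 361, and AOM+DSS libraries a to c held 282, 222 and 342. The groups overlapped throughout, and DSS held both a library below the controls and the highest library. Control averaged 323 ± 31.2 normalized reads (SD, n = 3), DSS 367 ± 94.7 (n = 4) and AOM+DSS 282 ± 60.4 (n = 3). Its log2 fold in the authors' deposited table was 0.19 in DSS (DESeq adjusted p = 1) and -0.20 in AOM+DSS (adjusted p = 0.867). Limma put AOM+DSS against DSS at -0.36 (-0.93 to 0.20, adjusted p = 0.598).

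Cdkn1a encodes p21, the main cell cycle target of p53 and a marker of differentiated colonocytes. It was the most abundant of the family. Control libraries a to c held 6883, 7883 and 6959 normalized reads, and AOM+DSS libraries a to c held 5521, 6460 and 7000. Control and AOM+DSS overlapped through AOM+DSS library c. The control mean was 7242 ± 557 normalized reads (SD, n = 3) and that of AOM+DSS 6327 ± 749 (n = 3). The DSS mean in the authors' deposited table was 6370, and its libraries were not recovered. Its log2 fold in the authors' deposited table was -0.19 in DSS (DESeq adjusted p = 0.703) and -0.19 in AOM+DSS (adjusted p = 0.809), and limma gave -0.20 in AOM+DSS (-0.48 to 0.08).

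Cdkn1b encodes p27, an inhibitor controlled largely through protein turnover. Control libraries a to c held 1297, 1481 and 1520 normalized reads, DSS libraries a to d held 1570, 1313, 1304 and 1166, and AOM+DSS libraries a to c held 1257, 1274 and 1594. All groups overlapped. The control mean was 1433 ± 119 normalized reads (SD, n = 3), that of DSS 1338 ± 168 (n = 4) and that of AOM+DSS 1375 ± 190 (n = 3). Its log2 fold in the authors' deposited table was -0.10 in DSS (DESeq adjusted p = 1) and -0.06 in AOM+DSS (adjusted p = 1), and limma gave intervals of -0.40 to 0.19 and -0.35 to 0.23. Between the treatments limma gave 0.04 (-0.28 to 0.36, adjusted p = 0.933).

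Cdkn1c encodes p57, an imprinted gene and the inhibitor best known from development and stem cell quiescence. Control libraries a to c were close together at 172, 175 and 181 normalized reads. DSS libraries a to d held 147, 115, 300.2 and 212, and AOM+DSS libraries a to c held 461, 147 and 294. Both treated groups thus reached below and above the control range, with DSS split between its pairs and AOM+DSS library b below control. Control averaged 176 ± 4.73 normalized reads (SD, n = 3), DSS 194 ± 81.9 (n = 4) and AOM+DSS 301 ± 157 (n = 3). The coefficient of variation was 2.69% in control, 42.3% in DSS and 52.2% in AOM+DSS. For Cdkn1c the authors' deposited table gave a log2 fold of 0.14 in DSS (DESeq adjusted p = 1) and 0.77 in AOM+DSS (adjusted p = 0.487). In AOM+DSS limma gave 0.62 (adjusted p = 0.274) with all libraries and called Cdkn1c in 1 of 11 settings. That setting left out AOM+DSS library b and gave 1.06 (limma adjusted p = 0.0402). Without library a limma gave 0.24 (adjusted p = 0.656), and without c 0.57 (adjusted p = 0.403). In DSS limma gave -0.44 without libraries c and d (adjusted p = 0.180) and 0.52 without a and b (adjusted p = 0.136). Between the treatments it gave 0.58 (-0.39 to 1.55, adjusted p = 0.617). The kit does not mark the strand, and GENCODE M21 places an antisense gene over Cdkn1c and an unclassified one opposite Cdkn1a, so reads of these could not be separated.

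Over the family, 1 of 7 genes was called higher and 0 lower in DSS by the authors' DESeq, where 4.39% of 18099 genes were called (2.61% higher, 1.78% lower). In AOM+DSS 1 of 7 was again called higher and 0 lower, where 8.89% of 18334 genes were called (5.54% higher, 3.35% lower). At an adjusted p under 0.1 the counts were 1 in DSS (5.83% of all genes) and 2 in AOM+DSS (12.0%). At an unadjusted p under 0.05 they were 1 and 2. The share of all genes at that unadjusted threshold was not counted in any comparison, so those counts have no background beside them. Limma called 1 higher and 0 lower of 6 in DSS (5.67% of genes called, 2.97% higher and 2.70% lower) and 1 higher and 1 lower of 7 in AOM+DSS (17.2%, 10.8% higher and 6.47% lower). The median log2 fold of the family in the authors' deposited table was -0.10 in DSS and -0.19 under AOM+DSS, beside 0.02 over all genes tested in each. Both comparisons share the 3 control libraries. Between the treatments, limma called 0 of 6 inhibitors (0 at an unadjusted p under 0.05), where 2.39% of 15693 genes were called (2.31% higher, 0.0828% lower). Groups did not overlap for 2 of 6 genes between DSS and control, 1 higher and 1 lower, beside 20.1% of all genes (9.28% higher, 10.8% lower). They did not overlap for 3 of 7 between AOM+DSS and control, 1 higher and 2 lower, beside 38.5% (20.7% higher, 17.8% lower). Between the treatments this held for 1 of 6, Cdkn2c, lower in AOM+DSS, beside 12.3% (8.90% higher, 3.39% lower).

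**Figure D4:**
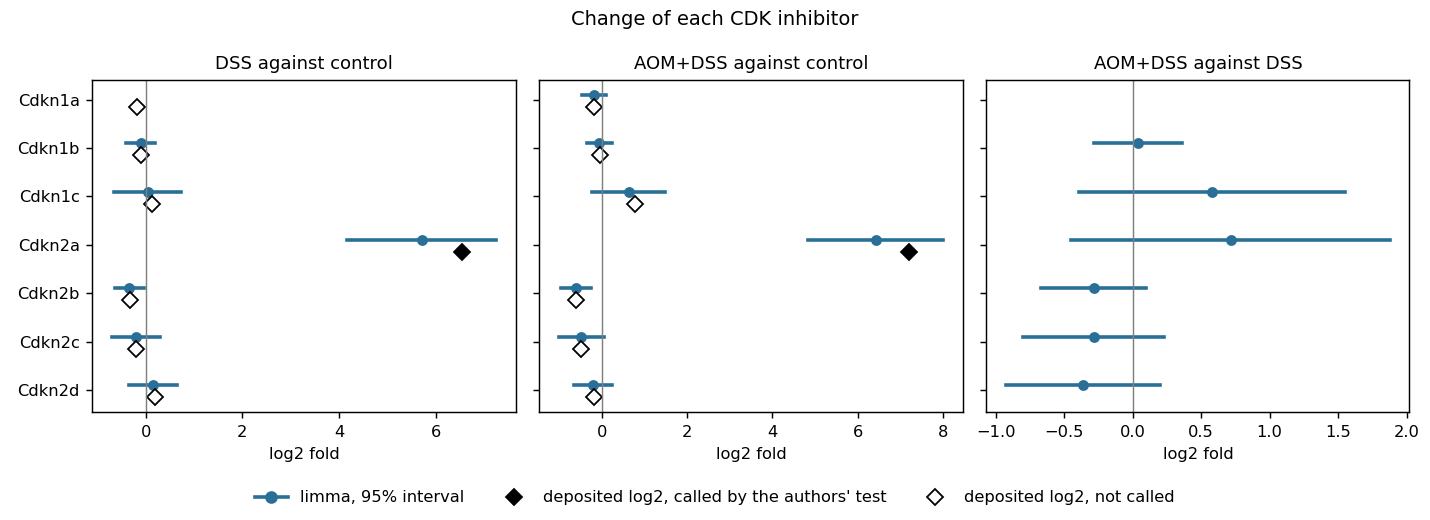
Log2 fold of each CDK inhibitor (horizontal axes, scaled separately) in 3 comparisons; circles and lines are limma estimates with 95% intervals, and diamonds are the deposited log2 folds, filled where the authors' DESeq called the gene. Cdkn2a lies at 5.71 to 7.21 in both comparisons with control, and every other estimate in the panels lies between -0.62 and 0.77.

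Per kilobase of the longest annotated transcript, the order of levels in control was Cdkn1a (3482 normalized reads per kilobase), Cdkn2b (1067), Cdkn1b (315), Cdkn2d (227), Cdkn1c (92.5), Cdkn2c (53.5) and Cdkn2a (1.10), and the library ranges of neighbours in that order did not overlap. In DSS the order of the first 4 was the same, but Cdkn1b (294) and Cdkn2d (258) overlapped. Cdkn2a (103) stood level with Cdkn1c (102) and overlapped it, and Cdkn2c (46.4) came last, below the range of Cdkn1c. In AOM+DSS Cdkn2d (198), Cdkn2a (163) and Cdkn1c (158) each overlapped the next. Cdkn1a made up 66.5% of the family's sum per kilobase in control, 64.9% in DSS and 66.1% in AOM+DSS. Cdkn2b made up 20.4%, 18.0% and 15.3%, and Cdkn2a 0.0211%, 2.19% and 3.54%.

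Among the other pairs of inhibitors, Cdkn2b and Cdkn2c ran together most closely (r = 0.69 over 10 libraries). Cdkn2a ran against Cdkn2c (-0.64 over 10 libraries, -0.77 over the 7 treated ones). Pairs with Cdkn1b or Cdkn1c had r between -0.25 and 0.34. These libraries share group and depth, so the values are descriptions. Likeness was ranked among 9214 genes recovered in all 10 libraries with a mean of at least 50. Genes with a DSS mean above 2000, not tried for recovery, could not enter. The 5 of these 9214 most like Cdkn2a were Xk (r = 0.996), Eya2 (0.995), 1700024P16Rik (0.988), Arid3a (0.988) and Eif4e3 (0.988). Arid3a, a DNA-binding protein gene, stood at 21.2 to 46.4 normalized reads in control and 181 to 524 in treated libraries, and Eya2, a transcriptional coactivator gene, at 14.5 to 32.6 and 129 to 230. These values span the step between control and treated libraries. Within the 7 treated libraries r was 0.98 for Arid3a, 0.94 for Xk, 0.93 for Eya2, 0.80 for 1700024P16Rik and 0.79 for Eif4e3. The 5 genes were picked over 10 libraries that include these 7, so the choice itself favours high values here.

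The partners and targets of the inhibitors were read from 8 lists. Of 12 cyclins and CDKs, 0 were called in DSS by the authors' DESeq (1 at an unadjusted p under 0.05, 1 of 10 by limma), with log2 folds of 0.43 for Ccnd2 (adjusted p = 0.691) and 0.40 for Ccnd1 (adjusted p = 0.384), both D-type cyclins, in the authors' deposited table. In AOM+DSS 1 of 12 rose by DESeq (4 at an unadjusted p under 0.05, 1 of 12 higher by limma). It was Ccnd1, by 0.75 (DESeq adjusted p = 0.00773) in the authors' deposited table. Its control libraries held 2238, 2085 and 1863 normalized reads and its AOM+DSS libraries 3371, 4189 and 2834. These did not overlap, beside 38.5% of all genes without overlap in this comparison (20.7% higher). The list's medians were 0.27 in DSS and 0.36 in AOM+DSS, beside 0.02 over all genes.

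Of 13 RB family and E2F genes, E2f2, an activating E2F factor, was the one called in each comparison. It stood at 422, 360 and 400.4 normalized reads in control, 1212, 1134, 1497 and 1469 in DSS, and 1144, 1045 and 1127 in AOM+DSS. All treated libraries lay well above all controls. Higher levels without overlap were seen for 9.28% of all genes in DSS and 20.7% in AOM+DSS. E2f2 rose by 1.75 in DSS (DESeq adjusted p = 6.93e-11, log2, the authors' deposited table) and by 1.49 in AOM+DSS (adjusted p = 5.73e-08). The medians of this list were -0.04 and -0.09.

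Replication and mitosis genes, 20 in all, had 0 called in DSS by the authors' DESeq (3 at an unadjusted p under 0.05, 1 lower of 18 by limma), with log2 folds of 0.19 for Mki67, a marker of cycling cells, and 0.41 for Top2a, the mitotic topoisomerase, in the authors' deposited table. In AOM+DSS 1 rose by DESeq (3 at an unadjusted p under 0.05, 1 of 20 higher by limma). It was Rrm2, a subunit of ribonucleotide reductase, by 0.99 (DESeq adjusted p = 0.0238) in the authors' deposited table. It stood at 347, 373 and 343 normalized reads in control and at 719, 959 and 441 in AOM+DSS. The list's medians were -0.05 and 0.11.

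Of 20 genes of the p53 and ARF axis, 1 fell and 0 rose in DSS, and 2 rose and 1 fell in AOM+DSS. Gdf15, a secreted stress factor, fell by 1.28 on the log2 scale in DSS (DESeq adjusted p = 0.00591) and by 1.08 in AOM+DSS (adjusted p = 0.0226), by the authors' deposited table. Pmaip1, which encodes the pro-apoptotic protein NOXA, rose in AOM+DSS by 1.05 (adjusted p = 0.00370), and Phlda3, an inhibitor of AKT, rose by 2.73 (adjusted p = 0.0245), both by DESeq in the authors' deposited table. Phlda3 stood at 108, 44.4 and 86.9 normalized reads in control and 402, 927 and 263 in AOM+DSS. By limma, 1 rose and 1 fell of 17 in DSS, and 4 rose and 0 fell of 20 in AOM+DSS, where the lower call of Gdf15 was lost. Cdkn1a, another known target of p53, was not called in AOM+DSS by either test. The medians of this list were 0.25 and 0.29.

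Of 21 Polycomb genes and other regulators of the Cdkn2a locus, 0 were called in DSS by the authors' DESeq (0 at an unadjusted p under 0.05, 0 of 19 by limma), with log2 folds of 0.12 for the activator Ets2 and 0.10 for its antagonist Id1 in the authors' deposited table. In AOM+DSS 1 rose by DESeq (6 at an unadjusted p under 0.05, 1 of 21 higher by limma). It was Tbx3, a T-box repressor known to act on the ARF promoter. Tbx3 stood at 0, 12.8 and 3.18 normalized reads in control, 1.58, 4.12, 0 and 1.55 in DSS, and 512, 1273 and 318 in AOM+DSS. It rose by 7.04 against control (DESeq adjusted p = 0.0114) in the authors' deposited table, and by 7.94 against DSS by limma (adjusted p = 0.000877). The AOM+DSS libraries also held the highest fibroblast and matrix sums, and the part of these cells in the Tbx3 level was not tested. Within AOM+DSS, Tbx3, Phlda3, Rrm2, Pmaip1, Ccnd1 and Cdkn2a ranked b, a, c by library, an order seen after the values were known. Other called genes did not, with E2f2 ranked a, c, b and Gdf15 ranked b, c, a. With 3 libraries few orders are possible, and the share of all genes with this order was not counted. The medians of the regulator list were 0.11 in both comparisons.

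Genes for the turnover of CIP/KIP proteins (11) had 0 called in either comparison by the authors' DESeq (1 in DSS and 3 in AOM+DSS at an unadjusted p under 0.05, and by limma 0 of 7 in DSS and 2 higher and 1 lower of 11 in AOM+DSS). Their 2 most abundant members, Ddb1 and Skp1a of ubiquitin ligase complexes, had log2 folds of 0.04 and 0.20 in DSS, and of 0.17 and 0.43 under AOM+DSS, in the authors' deposited table. Of 15 TGF-beta, MYC and FOXO genes, 1 rose in each comparison, Klf6, a zinc finger activator of Cdkn1a, by 0.70 in DSS (DESeq adjusted p = 0.00907) and 0.80 in AOM+DSS (adjusted p = 0.00337) in the authors' deposited table. Medians were 0.10 and 0.06 for the turnover list and 0.13 and 0.36 for this one.

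Senescence-associated secreted factors, which are also made by inflamed and stromal tissue, had the most calls of the 8 lists. Of 18, 6 rose in DSS and 12 in AOM+DSS, and 0 fell in either, by the authors' DESeq, with medians of 2.24 and 3.84. Plaur, the urokinase receptor, rose by 2.72 in DSS (adjusted p = 2.33e-05) and 3.79 in AOM+DSS (adjusted p = 4.21e-09) by DESeq in the authors' deposited table. The chemokine Ccl8 rose by 2.54 and 3.52, Il1a rose by 5.01 in DSS, and the neutrophil chemokine Cxcl5 rose by 5.99 in AOM+DSS, all in the authors' deposited table. Between the treatments, limma called 5 of 17 higher in AOM+DSS, among them the protease gene Mmp10 (4.40, adjusted p = 0.00316), Igfbp4 (2.90, adjusted p = 0.00463) and Cxcl5 (2.99, adjusted p = 0.0129). Myeloid sums were also higher in every AOM+DSS library than in any control, and the part of those cells in this list was not tested.

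**Figure D5:**
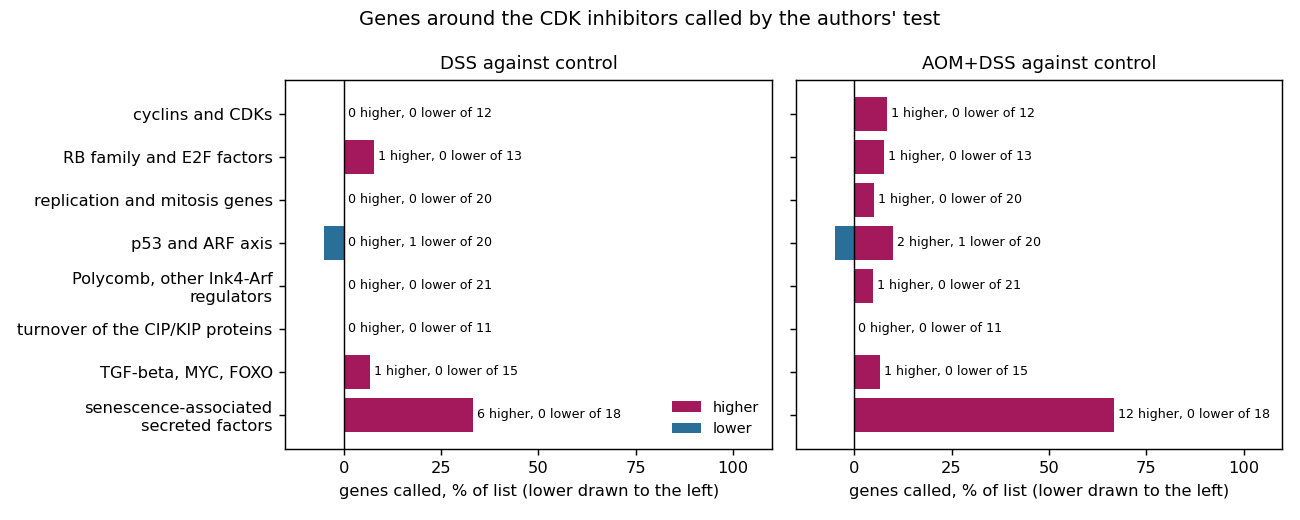
Share of each of 8 gene lists called by the authors' DESeq in the 2 comparisons with control (horizontal axes in percent of genes tested, higher to the right and lower to the left), with the counts beside each bar. The senescence-associated secreted factors have 6 and 12 of 18 genes called higher, and no other list has more than 3 genes called.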

How the data were processed

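Per the labels' protocols, libraries were made from crypt RNA with the TruSeq v2 kit; TopHat2 2.0, mm9 and DESeq are named in the submitters' processing notes. Not given in the sources used here: the read counter and annotation. Per the file headers, the deposited signal columns are group means of normalized counts, with the fold (ratio of means), its log2 and the DESeq p-value, raw and adjusted. One header speaks of 4 AOM replicates; the labels list 3, and the means fit 3.

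Whole reads per library were recovered by integer search, where 1 combination of reads matched the printed means; the search and limma were tested on simulated data. DSS means above 2000 were not tried, and the lowest DSS mean not recovered was 1383. The tables hold no counts per sample, and no count test of group differences was run on the recovered reads. Calls used an adjusted p under 0.05, from the authors' DESeq against control and from limma 3.58.1 (R 4.3.3, trend) on log2(normalized recovered reads + 1) between treatments. Limma against control, pseudocounts of 0.5 and 10, a mean filter of 10, TMM factors, a joint fit, left-out libraries and an adjusted p of 0.1 were alternatives. Lengths came from GENCODE M21 and promoter windows from RefSeq; no position was carried over to mm9. Whether libraries came from separate animals is unstated, so p-values reflect only the spread between these libraries, possibly technical. From each pathway list the 3 called genes of smallest adjusted p (at most) are named, or, with none called, the 2 of highest mean. The members and lists were chosen with earlier results of these data known.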

Additional observations from a re-analysis of the deposited data

How the results depend on the processing

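Cdkn2a was called in all 14 limma settings for DSS against control (log2 fold 3.09 to 6.43, adjusted p from 0.00207 to 0.0336) and in all 11 for AOM+DSS against control (3.74 to 7.15, 0.000995 to 0.0239); the lowest folds came with a pseudocount of 10. In DSS the count of inhibitors called was 1. Without DSS libraries c and d it was 2, when Cdkn2b passed as well (-0.48, limma adjusted p = 0.0460). That setting called 913 genes higher and 747 lower of 15264, beside 458 and 416 of 15412 with all libraries. In AOM+DSS the count of inhibitors was 1, and 2 at an adjusted p under 0.1 (12.0% of all genes). It was also 2 by limma with pseudocounts of 1 (17.2% of all genes), 10 and 0.5, the mean filter and TMM factors. When single libraries were left out it was 1 to 2. Limma then called 448 genes higher and 83 lower of 18235 without control library a, the fewest. It called 2481 and 1882 of 18144 without AOM+DSS library c, the most. Without DSS libraries c and d, Cdkn1b (0.0062), Cdkn1c (-0.44) and Cdkn2d (-0.053) changed sign against control, as did Cdkn1b between the treatments (-0.071). Leaving out single libraries gave -0.20 to 0.26 for Cdkn1c in DSS, with a change of sign without library c or d, and -0.072 to 0.12 for Cdkn1b between the treatments, with a change of sign without DSS library d or AOM+DSS library c; none of these values was called, and the cause was not tested. No inhibitor was called between the treatments in any of 14 settings. The size of the Cdkn2a folds rests on 3 control reads, from control libraries of 16448630 to 18190293 recovered reads. No paired analysis was possible because the recovered libraries carry no replicate number.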
